A study of Mus musculus with 40 samples.

Results

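Mrap, Hapln4, Car8 and 1700030C10Rik are 4 of the 51789 genes in a 3′ RNA count table of mouse melanoma cells, and each had 0 counts in both libraries of one B16-F10 group and over 90 counts in each library of the other. They were picked by name for this pattern, Mrap and Hapln4 as genes counted only in the Bmal1 knockout (KO) and Car8 and 1700030C10Rik as genes counted only in the control (Ctrl). Their B16-F10 values chose them and are therefore given as a description with no test. The question followed through the other 36 libraries was where else each gene was on or off, and whether its level moved with Bmal1 there.

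B16-F10 is a mouse melanoma line, and its Ctrl and Bmal1 KO libraries each came from 1 clone obtained from another laboratory, so clone and genotype cannot be told apart in them. YUMM2.1 is a line from tumors with Braf V600E, Cdkn2a+/- and a stabilized β-catenin allele among their alleles, aC3 is 1 Bmal1 KO clone of YUMM2.1 made by CRISPR, and YUMM1.7 is a line from tumors with Braf V600E and Cdkn2a-/- among theirs. YUMM2.1, aC3 and YUMM1.7 cells carried an empty vector (EV), wild-type Bmal1 (WT-Bmal1) or dHLH-Bmal1, a form without the basic helix-loop-helix domain that binds DNA, and YUMM2.1 cells with each of these carried in addition a hairpin, either control (shNC) or against the myosin gene Myh9 (shMyh9#2 or shMyh9#4). Constructs and hairpins came on lentivirus into cells sorted for GFP or selected with puromycin, and each of the 20 groups had 2 libraries.

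Bmal1, the product of Arntl, pairs with Clock and activates genes through E-box sequences, among them its own repressors. Mrap is the accessory protein that carries the adrenocorticotropin receptor Mc2r to the cell surface, and it is best known from adrenal cortex and fat. Hapln4 is a link protein that fastens proteoglycans to hyaluronan in the nets around neurons. Car8 belongs to the carbonic anhydrase family but lacks the enzyme activity, binds the inositol trisphosphate receptor Itpr1 and is typical of cerebellar Purkinje cells. 1700030C10Rik is annotated as a processed transcript, an RNA with no assigned protein.

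Positions are in GRCm38, the assembly also called mm10. Mrap (ENSMUSG00000039956) lies on the plus strand at chr16:90738207-90749785, Hapln4 (ENSMUSG00000007594) on the plus strand at chr8:70083457-70090862, Car8 (ENSMUSG00000041261) on the minus strand at chr4:8143362-8239041 and 1700030C10Rik (ENSMUSG00000099759) on the minus strand at chr12:20804381-20815779. No 2 of them share a chromosome. QuantSeq reads start near the poly(A) tail, so the last 30 bases at the annotated end of the 3 protein-coding genes are shown, written 5′ to 3′ on the gene's strand, with the poly(A) signal AATAAA or ATTAAA in capitals. These ends lie at chr16:90749756-90749785 for Mrap, chr8:70090833-70090862 for Hapln4 and chr4:8143362-8143391 for Car8.
Mrap: gaaAATAAAatgtgaattaggataaagaaa
Hapln4: aagtgctgagATTAAAggtgtaagccacca
Car8: tcAATAAAactttaaataactattctcaaa
All 3 ends held these letters, and whether they act as a signal was not tested. Shorter annotated transcripts of Mrap and Hapln4 that end elsewhere held neither in their last 30 bases.

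Over the last 500 bases, no other annotated transcript matched Mrap or Hapln4 at 95% identity or more over at least 75 bases. Car8 matched transcripts of 8 genes, with a best identity of 96.3%, and 1700030C10Rik matched Gm28503 and Gm48031 with a best identity of 100% and a longest match of 147 bases. Reads from such stretches could be divided between the genes, so the counts of Car8 and 1700030C10Rik are uncertain to that extent. Gm28503 and Gm48031 were at 0 counts in all 40 libraries, as were Gm11799 and Gm25355, which overlap Car8.

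The symbol 1700030C10Rik also belongs to a second identifier, ENSMUSG00000091071, a pseudogene on the same strand at chr12:20814257-20815727 inside the gene. It had 3 and 14 counts in B16-F10 Ctrl, 0 in both KO libraries, 9 to 30 in YUMM1.7, 1 in a single aC3 library and 0 in all other libraries, so its counts followed those of the larger gene. Transcript ends of this identifier matched 20 other genes, among them Asap2, Zfp125 and 3110053B16Rik, with a best identity of 100%. Its counts may therefore include shared reads and are not a separate reading of the locus. All values below are of ENSMUSG00000099759.

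The RefSeq promoter table held 1 of the 4 genes. The 250 bases before the start of 1700030C10Rik, chr12:20815780-20816029 on the minus strand of GRCm38.p6, are shown because the gene is the most abundant of the 4 in B16-F10 Ctrl and YUMM1.7, with CG in capitals.
1700030C10Rik promoter: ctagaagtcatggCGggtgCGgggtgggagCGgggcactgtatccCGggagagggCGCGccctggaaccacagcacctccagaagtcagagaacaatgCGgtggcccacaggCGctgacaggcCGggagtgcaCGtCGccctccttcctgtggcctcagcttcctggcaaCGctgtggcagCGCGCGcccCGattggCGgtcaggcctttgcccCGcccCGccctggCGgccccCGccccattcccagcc
The window held 21 CG pairs, more than 83.7% of the 32851 promoters in the table (median 6), and 70.8% of its bases were G or C. Neither the E-box CACGTG, found in 6.02% of these promoters, nor CACGTT on either strand, found in 3.85%, was among its letters, which says nothing about binding elsewhere.

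In B16-F10, Mrap had 0 counts in both Ctrl libraries and 148 and 176 counts in the KO libraries, or 6.03 and 8.44 CPM, the unit for counts scaled to library size. Hapln4 had 0 counts in both Ctrl libraries and 93 and 104 in KO, or 3.79 and 4.99 CPM. Both genes were thus high in each KO library and uncounted in Ctrl. Car8 had 94 and 96 counts in the Ctrl libraries, or 4.48 and 4.65 CPM, and 0 in both KO libraries. 1700030C10Rik had 333 and 424 counts in Ctrl, or 15.9 and 20.5 CPM, and 0 in both KO libraries. Both of these were high in each Ctrl library and uncounted in KO.

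A count of 0 allows up to 3 counts, which in these 4 deep libraries, of 19348395 to 22970049 counts each, is at most 0.145 CPM, and such limits cover counting error only. The mean of the counted group was divided by the higher floor of the other group's 2 libraries. This ratio was 49.8 for Mrap and 30.2 for Hapln4, both higher in KO. It was 31.7 for Car8 and 127 for 1700030C10Rik, both lower in KO. The spread of the counted group is not part of these ratios, and the lower of its 2 libraries alone would give less. The means behind these ratios were 7.234 ± 1.7001 CPM (SD, n = 2) for Mrap, 4.39 ± 0.845 for Hapln4, 4.56 ± 0.124 for Car8 and 18.2 ± 3.31 for 1700030C10Rik. In these bulk samples fewer expressing cells and less RNA per cell cannot be told apart.

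Arntl did not separate the 2 clones. It had 319 and 221 counts in Ctrl and 326 and 240 in KO, a log2 difference of -0.07 with a standard error of 0.26 (edgeR adjusted p = 0.92), so the 3′ reads do not check the knockout labels. Of the 14 Bmal1-Clock target genes tested, 1 was called, the nuclear receptor Nr1d2, which fell from 34.6 to 6.74 CPM, a log2 difference of -2.37 with a standard error of 0.21 (edgeR adjusted p = 0.033). Over all 14556 genes tested in this comparison, 0.44% were called.

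**Figure D1:**
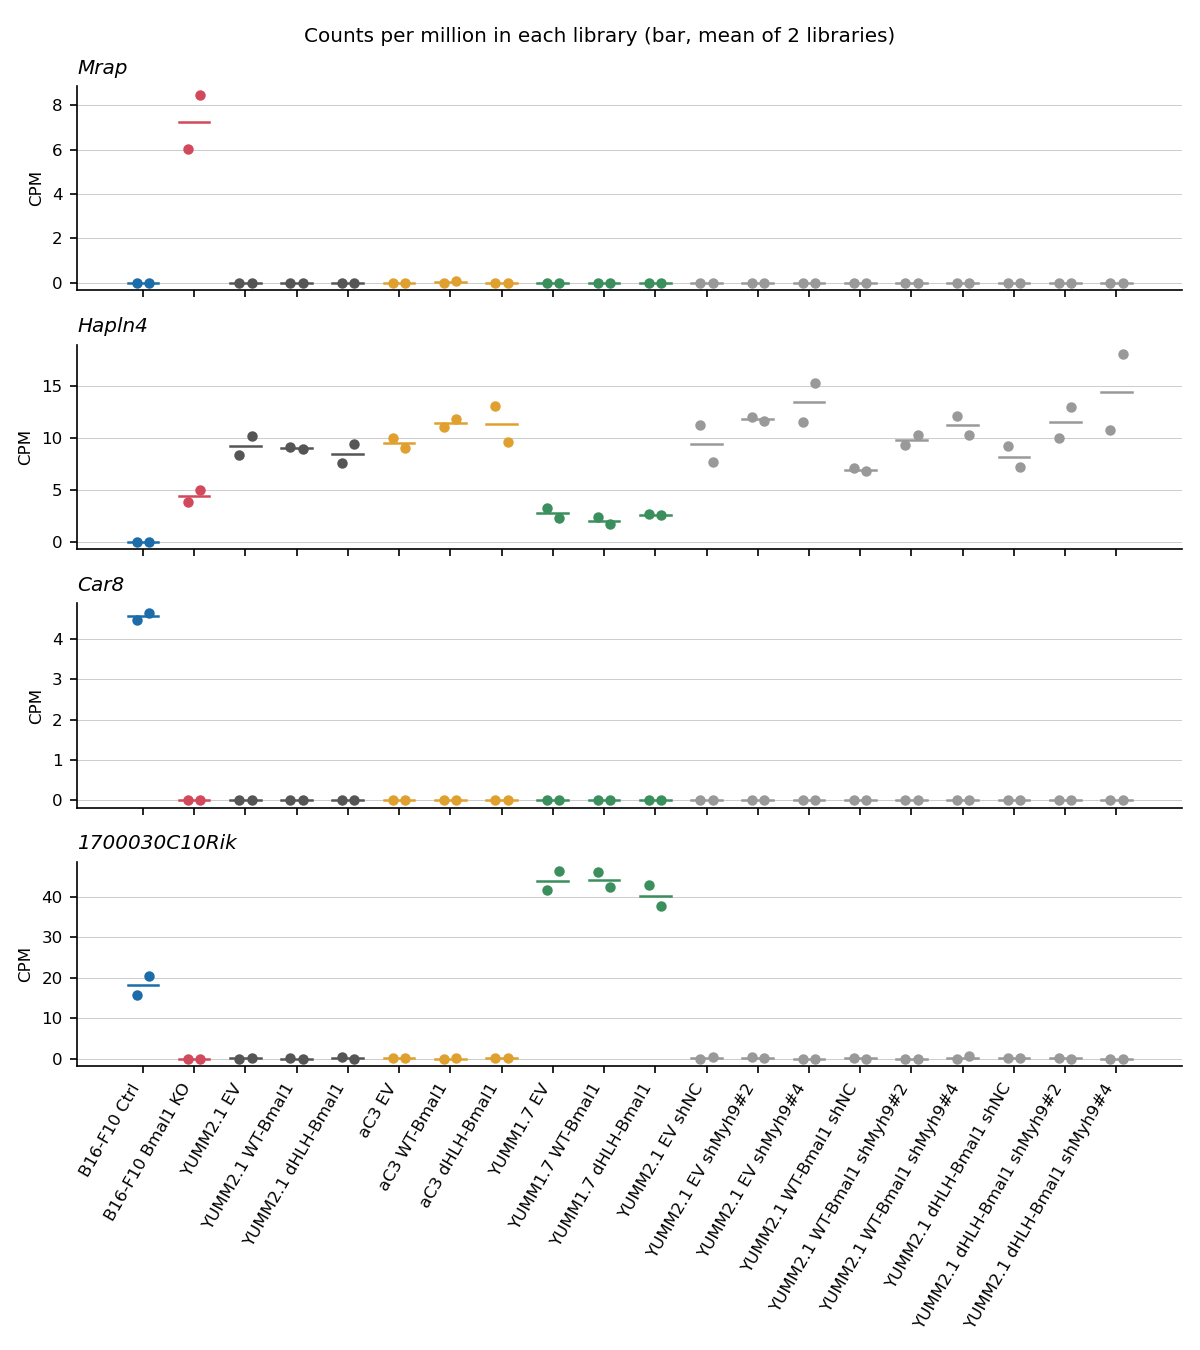
CPM (vertical axis, linear, a separate scale for each gene) of the 4 genes in each of the 40 libraries, by group; points are libraries and bars the mean of 2 libraries. Mrap stands above 1 count only in B16-F10 KO and Car8 only in B16-F10 Ctrl, while Hapln4 is counted in every YUMM library and 1700030C10Rik is high in YUMM1.7 as well as in B16-F10 Ctrl.

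Outside B16-F10, Mrap and Car8 were at or near 0 in every group, with and without Bmal1. Mrap was at 0 in 35 of the 36 YUMM libraries, and the exception was 1 count in aC3 WT-Bmal1 replicate 2. Car8 was at 0 in all 36 libraries. With 3 counts equal to 0.249 to 0.357 CPM in YUMM2.1, 0.268 to 0.322 in aC3, 0.263 to 0.306 in YUMM1.7 and 0.178 to 0.845 with hairpins, levels like those of the B16-F10 groups that expressed these genes would have been counted. In aC3, which like B16-F10 KO lacks Bmal1, Mrap had 0 counts in both EV libraries, and in YUMM2.1 and YUMM1.7, which have their own Bmal1 as B16-F10 Ctrl does, Car8 had none. No test was possible for either gene, since at most 1 count was present in any group.

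Hapln4, in contrast, was counted in all 36 YUMM libraries, and B16-F10 Ctrl was the single group of the 20 without it. It ran at 7.57, 9.01 and 10.1 CPM (lowest, median, highest) in the 6 YUMM2.1 libraries, at 8.99, 10.5 and 13.04 in the 6 aC3 libraries and at 1.66, 2.43 and 3.21 in the 6 YUMM1.7 libraries. The 18 hairpin libraries ran from 6.77 to 18.1 CPM with a median of 10.5. YUMM1.7 was the low line, below both the YUMM2.1 and the aC3 range with no overlap, and the 2 B16-F10 KO libraries, at 3.79 and 4.99 CPM, lay between it and the others.

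Ordered by mean, Hapln4 was highest in YUMM2.1 dHLH-Bmal1 shMyh9#4, at 14.39 ± 5.205 CPM (SD, n = 2), and B16-F10 KO held rank 16 of the 20 groups, above the 3 YUMM1.7 groups. In this order 14 of the 19 neighbouring pairs of groups overlapped. The breaks lay below YUMM2.1 dHLH-Bmal1 shNC, on both sides of B16-F10 KO, and on both sides of YUMM1.7 WT-Bmal1. Each group from rank 1 to 13 overlapped the next, while groups farther apart in the order need not overlap.

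Between aC3 EV and YUMM2.1 EV no difference in Hapln4 was detectable. The gene had 10.01 and 8.99 CPM in the aC3 EV libraries and 8.30 and 10.1 CPM in the YUMM2.1 EV libraries, which overlap. The log2 fold change was 0.05 with a standard error of 0.25 (edgeR adjusted p = 0.99) and a 95% interval from -0.47 to 0.57. Among all genes tested in this comparison 2.48% were called, and among the 15 Bmal1-Clock targets 7 were lower (Dbp, Nr1d1, Nr1d2, Per2, Per3, Tef and Bhlhe40) and 1 higher (Nfil3). Arntl was higher in aC3 EV, at 31.8 against 14.9 CPM (log2 fold change 1.09, edgeR adjusted p = 0.0026), so the 3′ reads do not check this knockout label either. The labels do not say whether the aC3 and YUMM2.1 libraries were prepared together. Clone, any batch and Bmal1 cannot be told apart.

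Neither form of Bmal1 moved Hapln4 past the threshold in any line. In aC3 it had 11.0 and 11.8 CPM with WT-Bmal1, above both EV libraries, for a log2 fold change of 0.26 with a standard error of 0.21 (edgeR adjusted p = 0.47, 95% interval -0.18 to 0.71). In the same cells dHLH-Bmal1 gave 13.04 and 9.56 CPM, which overlap EV, and a log2 fold change of 0.24 (edgeR adjusted p = 0.51). The share of all genes called was 11.2% with WT-Bmal1, 10.9% with dHLH-Bmal1 and 0.877% between both, where Hapln4 differed by 0.02 (edgeR adjusted p = 0.98).

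In YUMM2.1 the log2 fold change against EV was -0.03 for WT-Bmal1 (edgeR adjusted p = 1.0) and -0.12 for dHLH-Bmal1 (edgeR adjusted p = 0.80), and between both forms it was 0.08 (edgeR adjusted p = 0.86). The share of all genes called was 0% (edgeR, 98 genes with an unadjusted p under 0.05), 13.2% and 13%. In the study's own normalized values the libraries labelled EV replicate 2 and WT-Bmal1 replicate 1 carry each other's labels. With these labels exchanged the 3 values were 0.12, -0.04 and 0.16, with edgeR adjusted p from 0.68 to 0.91 and 0.705%, 28.7% and 18.9% of all genes called, and the YUMM2.1 libraries of Hapln4 overlap either way.

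In YUMM1.7 the log2 fold change was -0.44 with a standard error of 0.40 for WT-Bmal1 (edgeR adjusted p = 0.76), -0.07 for dHLH-Bmal1 (edgeR adjusted p = 0.97) and -0.38 between both (edgeR adjusted p = 0.72), with 0.138%, 0.63% and 2.57% of all genes called. Over the 9 construct comparisons the 95% intervals ran from -1.28 to 0.75, so smaller changes would have been missed. A difference between lines in the response of Hapln4 to a construct was tested 6 times, for each construct and each pair of lines, and passed 0 times, with edgeR adjusted p from 0.63 to 1.0 and unadjusted p from 0.085 to 0.91. Of all genes, 0.168%, 0.349% and 0% were called for WT-Bmal1 and 11.6%, 0.0782% and 9.42% for dHLH-Bmal1 (aC3 with YUMM2.1, aC3 with YUMM1.7, YUMM2.1 with YUMM1.7), so that 0 passes is near the background in most of these tests.

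Hapln4 differed between lines. In YUMM1.7 EV it had 3.21 and 2.25 CPM against 8.30 and 10.1 in YUMM2.1 EV, so that it was lower by a log2 fold change of -1.75 with a standard error of 0.28 (edgeR adjusted p = 1.6e-05). With the exchanged labels it was -1.67 (edgeR adjusted p = 2.0e-05). Of all genes tested in this comparison 31.8% were called, so a call was common.

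**Figure D2:**
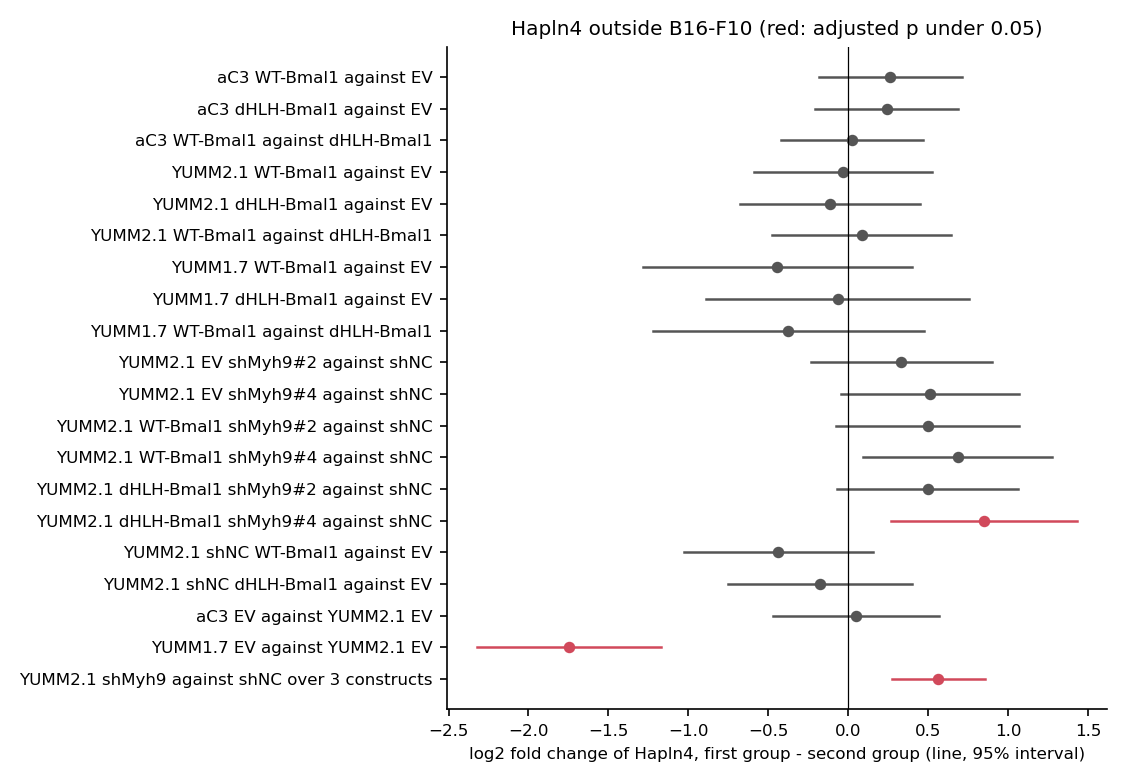
Log2 fold change of Hapln4 (points) with 95% intervals (lines) in the comparisons outside B16-F10, the first group named minus the second; red marks an edgeR adjusted p under 0.05. The construct comparisons straddle 0, YUMM1.7 EV lies at -1.75 against YUMM2.1 EV, and all 6 comparisons of a Myh9 hairpin with its control lie above 0, 1 of them past the threshold.

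With hairpins against Myh9, Hapln4 was higher than with shNC in each of 6 comparisons and passed the test in 1. Myh9 itself fell in all 6, with log2 fold changes of -2.04 to -1.51 with shMyh9#2 and -0.93 to -0.42 with shMyh9#4. Hapln4 had 11.2 and 7.62 CPM in EV shNC, 11.99 and 11.6 with shMyh9#2, and 11.5 and 15.3 with shMyh9#4. The WT-Bmal1 cells had 7.07 and 6.77 CPM in shNC, 9.33 and 10.3 with shMyh9#2, and 12.1 and 10.3 with shMyh9#4. The dHLH-Bmal1 cells had 9.17 and 7.13 CPM in shNC, 10.004 and 12.96 with shMyh9#2, and 10.7 and 18.1 with shMyh9#4.

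Within each construct, every library with a Myh9 hairpin was above both shNC libraries. The share of all genes separated in this way is not given here, so the separation is only a description. With 2 libraries a group an exact permutation test cannot go below a two-sided p of 0.333. The 6 log2 fold changes ran from 0.33 to 0.85, and 1 of 6 passed, that of shMyh9#4 with dHLH-Bmal1 (0.85 with a standard error of 0.28, edgeR adjusted p = 0.046, 15.1% of all genes called). That call was lost with the replicate number as a block (edgeR adjusted p = 0.057), and without shNC replicate 1 (0.12), shNC replicate 2 (0.23) or shMyh9#4 replicate 2, where the log2 fold change was 0.39 (edgeR adjusted p = 0.58). The other 5 had edgeR adjusted p from 0.33 to 0.57, and the share of all genes called was 6.65% and 1.71% for shMyh9#2 and shMyh9#4 in EV cells, 4.76% and 0.236% in WT-Bmal1 cells, and 0.559% for shMyh9#2 in dHLH-Bmal1 cells. Both hairpins of a construct share its shNC libraries.

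A contrast of all 12 Myh9 hairpin libraries with the 6 shNC libraries, chosen after these values were seen, gave Hapln4 a log2 fold change of 0.56 with a standard error of 0.14 (edgeR adjusted p = 0.022), at 12.01 against 8.16 CPM and 5.74% of all genes called. It was no longer past the threshold without EV shNC replicate 2 (0.48, edgeR adjusted p = 0.10), WT-Bmal1 shNC replicate 1 (0.57, 0.068), WT-Bmal1 shNC replicate 2 (0.55, 0.066) or dHLH-Bmal1 shNC replicate 2 (0.51, 0.084). Under shNC alone, Hapln4 differed from EV by -0.44 with WT-Bmal1 (edgeR adjusted p = 0.28, 22.3% of all genes called) and by -0.18 with dHLH-Bmal1 (edgeR adjusted p = 0.69, 26.4%). The hairpin libraries had from 3643332 to 17485144 counts, and the part of depth in these values was not tested.

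1700030C10Rik was on in YUMM1.7 and at trace level in YUMM2.1 and aC3. The 6 YUMM1.7 libraries had 467 and 494 counts (EV), 517 and 483 (WT-Bmal1) and 419 and 414 (dHLH-Bmal1), or 37.6 to 46.2 CPM, all above the 15.9 and 20.5 CPM of B16-F10 Ctrl. YUMM2.1 libraries had 0 to 4 counts, aC3 libraries 0 to 3 and hairpin libraries 0 to 6, and 11 of the 36 YUMM libraries were at 0. The group means fell from 40.2 CPM in YUMM1.7 dHLH-Bmal1 to 18.2 in B16-F10 Ctrl and then to 0.294 and less, and 17 of 19 neighbouring pairs in this order overlapped.

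Between YUMM1.7 EV and YUMM2.1 EV, with 961 against 2 counts summed over 2 libraries each, the ratio was 468 with a 95% counting interval (exact) from 129 to 3867, and the edgeR adjusted p was 5.9e-11. Among Bmal1 forms in YUMM1.7 the gene passed in 0 of 3 comparisons. WT-Bmal1 differed from EV by 0.02 on the log2 scale (edgeR adjusted p = 0.97, 95% interval -0.19 to 0.23), dHLH-Bmal1 from EV by -0.12 (edgeR adjusted p = 0.73, interval -0.34 to 0.09), and WT-Bmal1 from dHLH-Bmal1 by 0.15 (edgeR adjusted p = 0.54, interval -0.07 to 0.36). These narrow intervals bound any change with an added construct in YUMM1.7, whose own Bmal1 was not edited. Between aC3 EV, with 3 and 1 counts, and YUMM2.1 EV, with 1 and 1, no fold is given.

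The 4 genes were among 21 that met the same rule in B16-F10, with 0 counts in both libraries of one clone and at least 1 CPM in both of the other. Of these, 14 were counted in KO and 7 in Ctrl, on 12 chromosomes, and 17 were protein coding. Among the 14, Mrap ranked 2 and Hapln4 4 by mean level, beside the exosome subunit Exosc6 (8.05 CPM, from 316 and 67 counts) and Itm2a (4.09 CPM). Among the 7, 1700030C10Rik ranked 1 and Car8 2, followed by Gm11273 (2.27 CPM), the transcription factor Batf (1.89 CPM) and B230311B06Rik (1.85 CPM).

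Genes just outside the rule were close in level. Phyhipl had 2 and 0 counts in Ctrl and 186 and 186 in KO, Rec114 2 and 0 against 169 and 115, and Gimap9 1 and 2 against 146 and 130. In the other direction Smoc1 had 39 and 50 counts in Ctrl and 2 and 0 in KO, Tns1 39 and 44 against 2 and 0, and Ece1 34 and 33 against 0 and 2. There were 18 such genes higher in KO and 9 higher in Ctrl, so the edge of the rule is not a gap in the data.

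Elsewhere some of the 21 genes were present and others were not. A gene is taken as on in a line at 1 CPM or more in all 6 libraries without a hairpin. Of the 14 genes counted in KO, 5 were on in at least 1 YUMM line, Hapln4 and the zinc finger gene Zfp334 in all 3 lines (the latter named after its values were seen). Of the 7 counted in Ctrl, 1 was on in any line, 1700030C10Rik. At most 3 counts in every YUMM library were found for Mrap, Car8, Gm11273, Batf and Anpep. In aC3 EV against YUMM2.1 EV, 11 of the 21 had enough counts for a test and 1 was called, beside 2.48% of all genes (3.74% with the exchanged labels), Itm2a, which fell by 2.35 on the log2 scale (edgeR adjusted p = 0.0076).

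**Figure D3:**
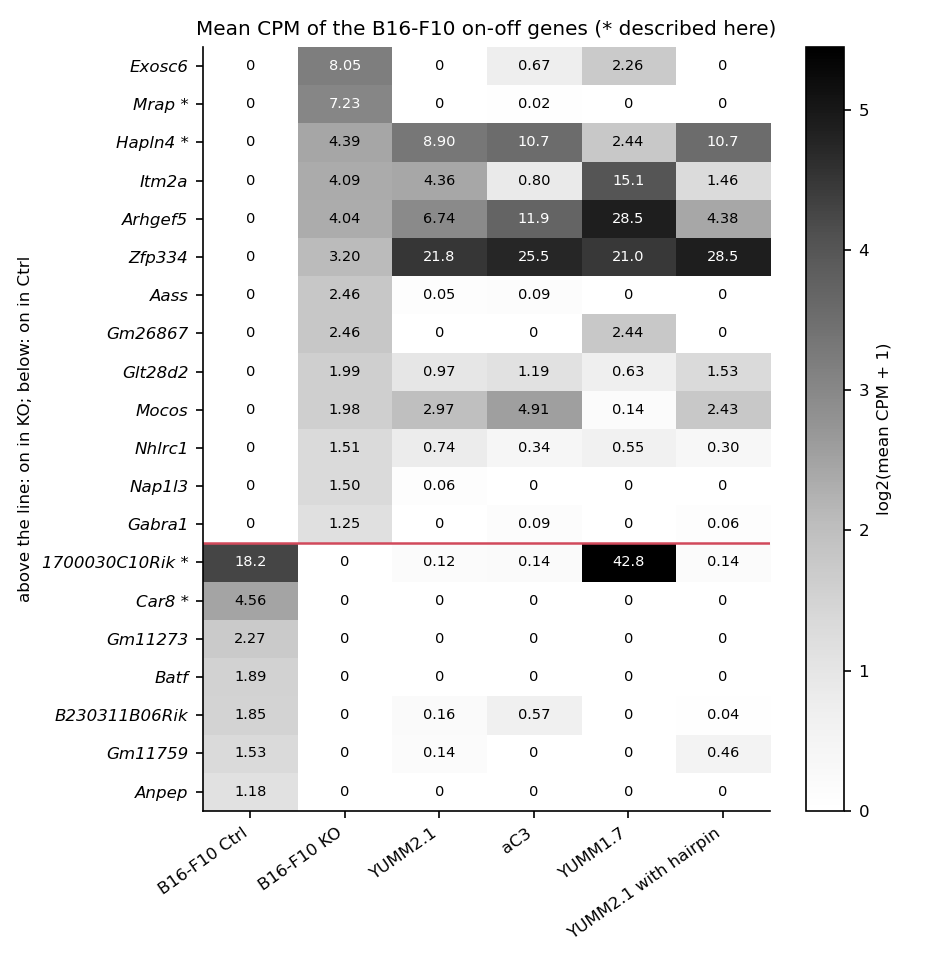
Mean CPM (numbers; shading, log2 of mean CPM + 1) of 20 of the 21 on-off genes of B16-F10 in both B16-F10 clones and in the YUMM lines; stars mark the 4 genes described. Genes above the line are counted in KO and include Hapln4 and Zfp334, present in each YUMM line, while below it only 1700030C10Rik, at 42.8 CPM in YUMM1.7, reached 1 CPM in a YUMM line.

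The on-off pattern also occurred in other comparisons, each time in a small part of the 27946 genes with a count in the series. It was met by 19 genes between aC3 EV and YUMM2.1 EV, of which 17 were off in aC3, and by 242 between YUMM1.7 EV and YUMM2.1 EV. The 9 comparisons of constructs without a hairpin gave 4 to 35 genes, with a median of 4, and the 8 with a hairpin 4 to 65. These counts depend on depth and on how many genes lie near 1 CPM, and B16-F10 was the deepest experiment.

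Single libraries gave more such genes, also within a clone. At 1 CPM, 42 genes were at 0 in one Ctrl library and on in the other, and 74 in the pair of KO libraries, against 70 to 138 for 1 Ctrl and 1 KO library. At 3.79 CPM, the lowest level of the 4 genes in a library that had them, the counts were 8 and 34 within a clone and 18 to 48 between clones. Of the 21 genes, 5 reached that level in both libraries, the 4 genes among them by construction, since their own values set it. Single libraries of the same clone thus also show the pattern.

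**Figure D4:**
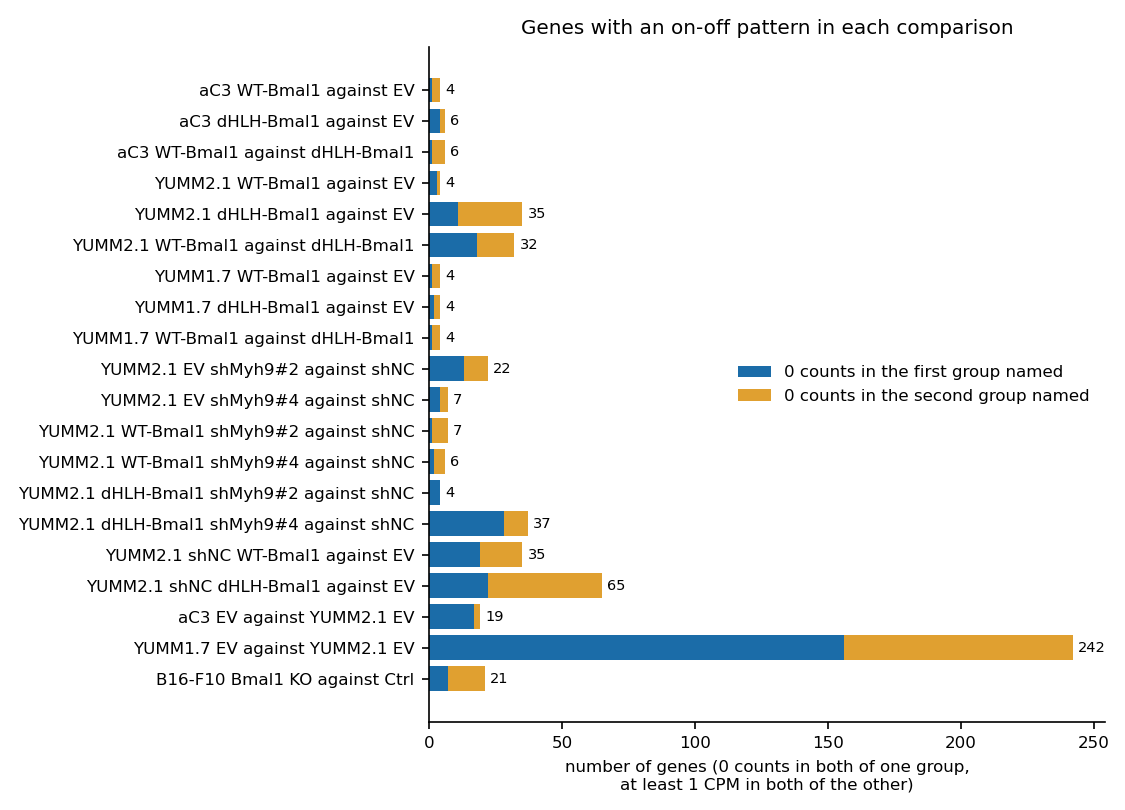
Number of genes with 0 counts in both libraries of one group and at least 1 CPM in both of the other, for each of 20 comparisons (bars, stacked by the group at 0). B16-F10 KO against Ctrl, with 21, is close to aC3 EV against YUMM2.1 EV, with 19, and far below YUMM1.7 EV against YUMM2.1 EV, with 242.

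The genes next to the 4 were mostly counted in both clones. The 3 nearest genes with a count on each side made 24 neighbours, 20 of them counted in all 4 B16-F10 libraries. Of the 19 tested in KO against Ctrl 0 passed, with log2 fold changes from -1.30 to 0.39 and a lowest edgeR adjusted p of 0.39. With 0.44% of all genes called in this comparison (edgeR, 1715 genes with an unadjusted p under 0.05), 0 of 19 is near the background. The 5 not tested had too few counts, and 3 of them were at 0 in both KO libraries, the second identifier of 1700030C10Rik (3 and 14 counts in Ctrl), Gm49371 (5 and 1) and Tox (4 and 0).

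Urb1, 1.74 kb downstream of Mrap, had 239 and 168 counts in Ctrl and 299 and 96 in KO. Tm6sf2, 3.39 kb upstream of Hapln4, had 34 and 18 against 19 and 9, and Ncan, a proteoglycan of the brain on its other side, 2 and 0 against 1 and 0. Rab2a and Chd7, the nearest counted genes upstream of Car8, had log2 fold changes of -0.13 and -0.37 (edgeR adjusted p = 0.75 and 0.45). Beside 1700030C10Rik, 3110053B16Rik had 65 and 63 counts against 41 and 17, and Zfp125 215 and 204 against 178 and 84, with log2 fold changes of -1.30 and -0.84 that did not pass. Both matched the second identifier of 1700030C10Rik, so reads could be divided among them. The 14 genes tested within 1 Mb of 1700030C10Rik had a median log2 fold change of -0.26, against -0.01 over all genes. The medians were -0.13 around Mrap (22 genes), 0.17 around Hapln4 (60 genes) and -0.25 around Car8 (2 genes). Within 1 Mb, 98 genes were tested and 1 was called, beside the 0.44% of all genes, Isyna1 (inositol phosphate synthase, named after its value was seen), 511 kb downstream of Hapln4, which had 68 and 57 counts in Ctrl and 565 and 719 in KO and rose by 3.25 on the log2 scale with a standard error of 0.31 (edgeR adjusted p = 0.033).

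**Figure D5:**
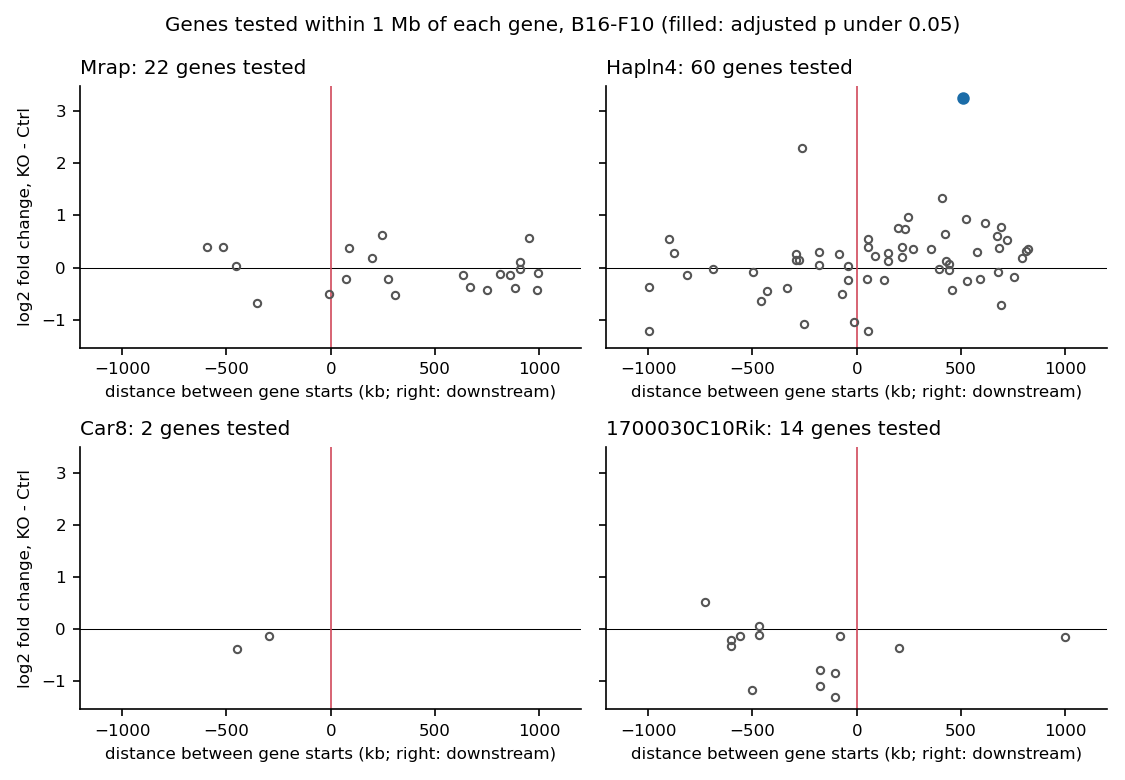
Log2 fold change between B16-F10 KO and Ctrl (vertical axis) of the genes tested within 1 Mb of each of the 4 genes, against the distance between gene starts in kb (horizontal axis, positive downstream); the red line marks the named gene and the filled point a gene with an edgeR adjusted p under 0.05. Only Isyna1, at 3.25, passed among 98 genes.

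Known partners of the 3 proteins were not called in B16-F10, where the 2 KO libraries differed widely. Their counts differed by a chi-square of 89.4 per gene, against 10.6 for the Ctrl libraries and at most 20.5 in any other group. The part of this spread in the few calls was not tested. The melanocortin receptors Mc2r, Mc3r, Mc4r and Mc5r were at 0 in all 4 libraries, while Mc1r, the melanocyte receptor, stood at 267 CPM in Ctrl and 205 in KO (log2 fold change -0.39, edgeR adjusted p = 0.43). Of the melanocortin genes 11 were tested and 0 called, with a median of -0.33 against -0.01 over all genes. Of the hyaluronan and link protein genes 7 were tested and 0 called (median -0.14), and Hapln1, Hapln2 and Hapln3 had at most 2 counts in any B16-F10 library. The proteoglycan Bcan had 379 and 308 counts in Ctrl and 46 and 67 in KO, without overlap, and a log2 fold change of -2.71 that did not pass (edgeR adjusted p = 0.063).

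Of the carbonic anhydrases and inositol trisphosphate receptors 13 were tested and 0 called (median -0.10). Itpr1, the partner of Car8, had 121 CPM in Ctrl and 118 in KO (log2 fold change -0.03, edgeR adjusted p = 0.93), and Car12 had 64 and 55 counts in Ctrl and 6 and 2 in KO, a log2 fold change of -4.00 that did not pass (edgeR adjusted p = 0.10). The share of all genes called, 0.44%, was low in this comparison, so a list without a call is near the background.

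Markers of the tissues these genes are known from were near 0. Of 10 testis germ cell markers 9 were at 0 in both B16-F10 clones, and the 8 adrenal cortex markers summed to 1.57 to 1.60 CPM in Ctrl and 1.58 to 1.75 in KO, with Mc2r, Cyp21a1 and Cyp17a1 at 0. The 10 adipocyte markers summed to 4.46 to 4.52 CPM in Ctrl and 5.26 to 9.01 in KO, with Cidec, Lep and Pck1 at 0 in both. Of the 10 Purkinje and cerebellar markers, which summed to 118 to 123 CPM over both clones, Itpr1 made up almost all, and Pcp2 and Calb1 were at 0. Leukocyte markers summed to 2.91 to 7.22 CPM in Ctrl and 2.201 to 6.14 in KO, and endothelial markers to 8.53 to 8.57 and 4.198 to 5.18.

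The 12 melanocyte markers summed to 25848 to 27536 CPM in B16-F10 Ctrl and 20872 to 22593 in KO, none of them called (median log2 fold change -0.25). They summed to 81.8 to 558 CPM in YUMM2.1, 454 to 627 in aC3 and 11.3 to 14.8 in YUMM1.7. Tyrp1, Dct and Mlana were at 0 in all of these libraries. Sox10 made up most of the sums in YUMM2.1 and aC3. Its mean was 349 CPM in YUMM2.1, 525 in aC3 and 0.826 in YUMM1.7, against 376 in B16-F10 Ctrl and 538 in KO. The YUMM lines thus lacked the pigment markers Tyrp1, Dct and Mlana, while Sox10 was near 0 in YUMM1.7 alone.

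The genes most like each of the 4 over the 20 group means of log2(CPM + 1) are given as a description, without a test, and correlations over so few expressing groups rest on them. Mrap was most like Rec114 and Gabre (Pearson r of 0.999 for each) and Phyhipl (0.995), all high in B16-F10 KO alone. Hapln4 was most like Prmt2 (0.964), Rapgef3 (0.9504) and Pcolce2 (0.931). Car8 was most like Gm11273, Anpep and Batf, each counted in B16-F10 Ctrl alone, so that r was 1.0 by construction. 1700030C10Rik was most like Gm26525 (0.976), its second identifier (0.965) and C1s1 (0.944).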

How the data were processed

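QuantSeq 3′ mRNA libraries were analysed from the gene counts that the authors deposited, which they made with bowtie2 alignment to mm10 and RSEM (version 1.2.3 in the submitters' processing notes) on an Ensembl transcriptome. The Ensembl release and the use of strand are not given in the sources used here. The counts are whole numbers without normalization, 3643332 to 22970049 per library (median 10021164.5). Symbols and positions came from GENCODE M21 (GRCm38), which matched 99.63% of the identifiers, and promoters from RefSeq. Groups followed the sample labels. The study calls the replicates biological duplicates, with no word on separate cultures, so p-values measure the spread between these samples, which may be technical.

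An experiment here is a set of libraries grouped by cell line and hairpin, and the labels name no experiment or batch. Each experiment was fitted separately with the edgeR 4.0.16 quasi-likelihood F test (R 4.3.3, TMM normalization, filterByExpr), with Benjamini-Hochberg adjustment over all genes tested and calls at an adjusted p under 0.05. Comparisons between lines used 1 fit of all 40 libraries. Standard errors were derived from the F statistic. CPM used TMM factors over all 40 libraries. Fits were tested on simulated data with 200 well-counted genes changed by 2 on the log2 scale, and 88% to 100% of these were recovered. Of the calls, 13.42% were false in aC3, 8.81% in B16-F10, 6.54% in YUMM1.7, 5.1% in YUMM2.1 and 2.49% with hairpins. Smaller changes, such as those of Hapln4 with constructs and hairpins, were not simulated. Folds against groups at 0 used a floor of 3 counts per library. Alternatives were DESeq2 1.42.0, other filters and normalization, the replicate number as a block, single libraries left out, exchanged labels and other on-off levels. Deviations of same-numbered libraries correlated at 0.294 to 0.618 in YUMM2.1 and at 0.163 in B16-F10 (1 pair of groups). They correlated at 0.0907 to 0.164 in aC3, -0.0957 to 0.0928 in YUMM1.7 and -0.335 to 0.446 in the hairpin experiment. The numbers were taken as pairs in YUMM2.1. The values printed are from fits without the block, which is an alternative in every experiment, so the printed YUMM2.1 values leave this pairing out. BLAST 2.17.0+ compared transcript ends. Figures were drawn with matplotlib 3.10.9.

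The 4 genes and the gene lists were chosen with earlier results of these data known. Named genes were the 4 genes, members of the lists, the 3 nearest counted genes on each side, the 5 most abundant on-off genes of each direction, the 3 genes just outside the rule in each direction and the 3 most similar genes by Pearson correlation, and any other gene is marked as named after its values were seen. A few items that these rules name are not reported here.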

Additional observations from a re-analysis of the deposited data

How the results depend on the processing

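The calls of Hapln4 and 1700030C10Rik between YUMM1.7 EV and YUMM2.1 EV held under every alternative run. For shMyh9#4 against shNC with dHLH-Bmal1, the number of the 4 genes called went from 1 to 0 with the replicate block and to 0 to 1 with 1 library left out; over the 3 constructs together it was also 0 to 1 with 1 library left out. The replicate block changed no other call of the 4 genes. In B16-F10 the number of genes called was 64, and 1952 in 1 fit of all 40 libraries, 433 with DESeq2, 444 without a filter on low counts, 249 with the replicate block, and 40 to 6612 with 1 library left out (6612 without KO replicate 1, 2213 without KO replicate 2, 40 without Ctrl replicate 2). A list's share of calls in B16-F10 therefore depends on the fit, and the cause was not tested. The on-off genes of B16-F10 numbered 21, and 32 at 0.5 CPM, 9 at 2 CPM and 36 to 79 with 1 library left out (48 without Ctrl replicate 1, 39 without Ctrl replicate 2, 79 without KO replicate 1, 36 without KO replicate 2), where fewer libraries have to meet the rule.

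Fold changes that changed sign were all small and uncalled. With 1 library left out, those of Hapln4 ran from -0.0094 to 0.44 for aC3 dHLH-Bmal1 against EV, -0.17 to 0.27 for aC3 WT-Bmal1 against dHLH-Bmal1, -0.17 to 0.10 for YUMM2.1 WT-Bmal1 against EV (0.12 with exchanged labels), -0.29 to 0.028 for YUMM2.1 dHLH-Bmal1 against EV, -0.068 to 0.25 for YUMM2.1 WT-Bmal1 against dHLH-Bmal1, -0.30 to 0.21 for YUMM1.7 dHLH-Bmal1 against EV, -0.44 to 0.12 for shNC dHLH-Bmal1 against EV, and -0.089 to 0.17 for aC3 EV against YUMM2.1 EV. That of 1700030C10Rik for YUMM1.7 WT-Bmal1 against EV ran from -0.056 to 0.10. With 2 libraries a group an exact permutation test of 1 gene cannot go below a two-sided p of 0.333, so only fits across all genes were used.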
